A study of Homo sapiens with 4 samples.

Results

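The distal part of the short arm of chromosome 1, often lost in neuroblastoma, was examined in nucleosome maps of BE(2)C cells. Its nucleosomes were chosen by position only. A nucleosome was counted when its dyad, the central base of a call (its start plus 73 bp), lay on chromosome 1 from base 1 to base 50000000 of GRCh37 (hg19). Distal 1p, as this stretch is called here, held 174491 of 10527010 nucleosomes in ctrl replicate 1, 208648 of 12120711 in ctrl replicate 2, 172888 of 10677252 in N-myc kd replicate 1 and 208244 of 12178724 in N-myc kd replicate 2. These were between 1.62% and 1.72% of the called nucleosomes on all 24 chromosomes. The stretch holds 1.83% of the known autosomal bases, a total without the sex chromosomes, so the shares cannot be compared directly. It was cut into 500 bins of 100 kb, of 28823 such bins on the autosomes, and 484 of them had at least 90% known bases and were used for levels. The arm was compared with chromosome 1 from 150 Mb to the end of the long arm, called 1q here, with 993 bins of which 984 were used. Distal 1p is GC-richer, with a median bin at 47.4% GC against 40.3% in 1q, and holds 688 protein-coding transcription start sites (TSSs) against 922.

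BE(2)C is a clonal subline of an established neuroblastoma cell line whose MYCN gene is amplified, so it stands for 1 tumour only. Both groups carried that amplification and both were transfected with siRNA, at 80 nM by the labels (the study's methods state a lower final concentration). The control group, ctrl, received a control siRNA and the MYCN knockdown group, N-myc kd, an siRNA against MYCN, with 2 libraries each. Chromatin was digested with micrococcal nuclease (MNase), which cuts between nucleosomes, and the protected fragments were sequenced as pairs. The libraries held 147726171 and 242544884 reads in called nucleosomes for replicates 1 and 2 of ctrl, and 147370973 and 239257113 for those of N-myc kd. Such maps hold no transcript levels, so neither the knockdown nor the cell type could be checked against a gene's expression here. The study's methods call the replicates biological, but neither they nor the labels say that these came from separate cultures, so p-values measure only the spread between these libraries.

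Loss of distal 1p is among the recurrent chromosome changes of neuroblastoma and is known to occur together with MYCN amplification, while gain of the long arms of chromosomes 1 and 17 is also recurrent. The arm carries several genes proposed as tumour suppressors of this cancer, such as CHD5, a chromatin remodeller, CAMTA1, a transcription activator, KIF1B, a kinesin needed for neuronal apoptosis, and CASZ1, a zinc finger factor of neural differentiation. A nucleosome wraps its DNA around a histone octamer, and the number of nucleosome reads from a stretch depends on how many copies of it a cell holds, on how full its nucleosomes are and on how well its sequence is cut, amplified and mapped. In these data copy number and occupancy per copy cannot be told apart, and "level" below means reads and not a counted number of DNA copies.

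Single nucleosomes of the arm seldom kept the same base in all libraries. Well-read nucleosomes with a similar place in all libraries and low mean fuzziness are shown first, because their calls rest on more reads. 2 nucleosomes of distal 1p, and 4 of 1q, had their dyad on the same base in all 4 libraries. When dyads were allowed to differ by up to 10 bp from that of ctrl replicate 2, 5309 nucleosomes of distal 1p (2.54% of those in ctrl replicate 2) were found in all 4 libraries, against 4.35% in 1q. Called nucleosomes of 1q also held more reads, and the part of that in the difference was not tested. Of the 5309, 189 had at least 20 reads in every library, and 144 of these lay outside annotated exons. The 3 with the lowest mean fuzziness whose central 31 bases occur once on chromosome 1 are printed from the GRCh37 plus strand, 5′ to 3′, and capitals mark bases that belong to an AA, TT, AT or TA step, the steps that in nucleosomal DNA tend to lie where the minor groove faces the histones. The 10-bp limit and the uniqueness of the central bases were chosen after the data had been examined.
PRKCZ intron, chr1:2105692-2105838: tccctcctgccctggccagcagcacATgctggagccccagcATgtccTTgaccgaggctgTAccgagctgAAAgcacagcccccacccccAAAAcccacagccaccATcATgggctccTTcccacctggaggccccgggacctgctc
Upstream of C1orf159, chr1:1055617-1055763: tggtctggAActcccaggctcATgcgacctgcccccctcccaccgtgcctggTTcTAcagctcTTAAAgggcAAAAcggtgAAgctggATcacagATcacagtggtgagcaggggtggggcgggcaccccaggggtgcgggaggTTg
Long noncoding RNA ENSG00000291156, chr1:996163-996309: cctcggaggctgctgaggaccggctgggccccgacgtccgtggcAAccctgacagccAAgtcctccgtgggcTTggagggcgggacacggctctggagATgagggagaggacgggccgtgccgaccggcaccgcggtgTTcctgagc

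The nucleosome in PRKCZ, the gene of an atypical protein kinase C, held 23 and 27 reads in ctrl and 22 and 21 reads in N-myc kd, and its 4 dyads spanned 3 bp. Its fuzziness, the standard deviation of the read midpoints around the dyad, was 20.1 and 12.9 bp in ctrl and 20.1 and 25.6 bp in N-myc kd. The nucleosome near C1orf159 lay 4221 bp from that TSS and outside any annotated gene. It held 24 and 33 reads in ctrl and 23 and 37 in N-myc kd, with dyads within 8 bp. Its fuzziness was 14.5 and 23.8 bp in ctrl and 19.2 and 25.65 bp in N-myc kd. The nucleosome in the noncoding RNA held 27 and 30 reads in ctrl and 24 and 30 in N-myc kd, with dyads within 3 bp. Its fuzziness was 17.4 and 29.25 bp in ctrl and 22.1 and 30.8 bp in N-myc kd. In the replicate 2 libraries this was near 31.4 bp, the median of mean fuzziness over the nucleosomes of distal 1p within 10 bp in all libraries. All 3 were GC-rich, at 66.0%, 63.3% and 71.4% GC, with 21, 25 and 10 of their bases in the capital steps. The 100-kb bins that hold them were also GC-rich, at 58.0%, 60.3% and 62.1% GC in the same order. All 3 also lay in the first 2.2 Mb of the arm, where the level was higher than in the rest of it.

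The same lean towards GC held for the called nucleosomes of the arm at large. Over all nucleosomes of distal 1p, the sequence under a call had 51.6% and 49.9% GC in ctrl replicates 1 and 2 and 51.4% and 49.8% in N-myc kd replicates 1 and 2, against 47.4% for the whole stretch. In 1q the same values were 43.9%, 42.8%, 43.8% and 42.7%, against 40.8% for the stretch. Called nucleosomes were therefore richer in GC than the mean of the whole stretch in both arms and all 4 libraries. The bases next to the calls were not measured, and GC-rich bins held more reads. The part of that in the difference was not tested. The nucleosomes of distal 1p within 10 bp in all libraries were richer still, at 56.0% GC, and AT steps made up 16.1% of steps beside their dyad and 17.4% at their edges. In each library the step share of distal 1p was also lower beside the dyad, at 20.5% to 22.5%, than at the edges, at 21.4% to 24.1%. In 1q ctrl replicate 1 alone ran the other way, at 29.8% and 29.4%. These are means over several bases. In the set within 10 bp the share was not lowest at the dyad. It was 16.7% at 0.5 bp from the dyad, 14.3% at 57.5 bp and 23.4% at 72.5 bp.

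Distal 1p had a low level along nearly its whole length. The level of a bin is its summed reads over the median autosomal 100-kb bin of the same library, so that 1 is the level of a typical autosomal bin. The median level of distal 1p was 0.734 and 0.763 in ctrl replicates 1 and 2 and 0.691 and 0.732 in N-myc kd replicates 1 and 2. In 1q it was 1.25 and 1.24 in ctrl and 1.24 in both knockdown libraries, so the median of distal 1p lay below that of 1q in each library. The log2 difference, distal 1p minus 1q, was -0.77 ± 0.059 (SD, n = 4 libraries). It was negative in 4 of 4 libraries (exact sign-flip permutation test over libraries, two-sided, p = 0.13, the smallest p that 4 libraries allow, so that no comparison of the arms could pass 0.05).

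The gap was wider once base composition was taken into account, as GC-rich bins held more reads. Within distal 1p Pearson's r between GC content and level over the 484 bins ran from 0.574 to 0.716 in the 4 libraries. Bins of one library share its depth and its composition bias, and these r are descriptions. When each bin was divided by the median of autosomal bins of its own 1% GC class, the median of distal 1p was 0.531, 0.560, 0.524 and 0.553 in ctrl replicates 1 and 2 and N-myc kd replicates 1 and 2. In 1q it was between 1.24 and 1.26, so distal 1p stood at 0.421 to 0.449 of 1q, and the log2 difference was -1.20 ± 0.040 (SD, n = 4). With bins of 40 to 45% GC alone and no correction, an alternative chosen after the data had been examined, distal 1p stood at 0.472 to 0.528 of 1q. Inside that class the median GC content was 43.3% in distal 1p (129 bins) and 42.1% in 1q (349 bins), so the arms were not fully matched. In 1q the corrected level ran against GC (r from -0.682 to -0.595), so the corrected ratio is less certain than its spread over libraries.

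**Figure D1:**
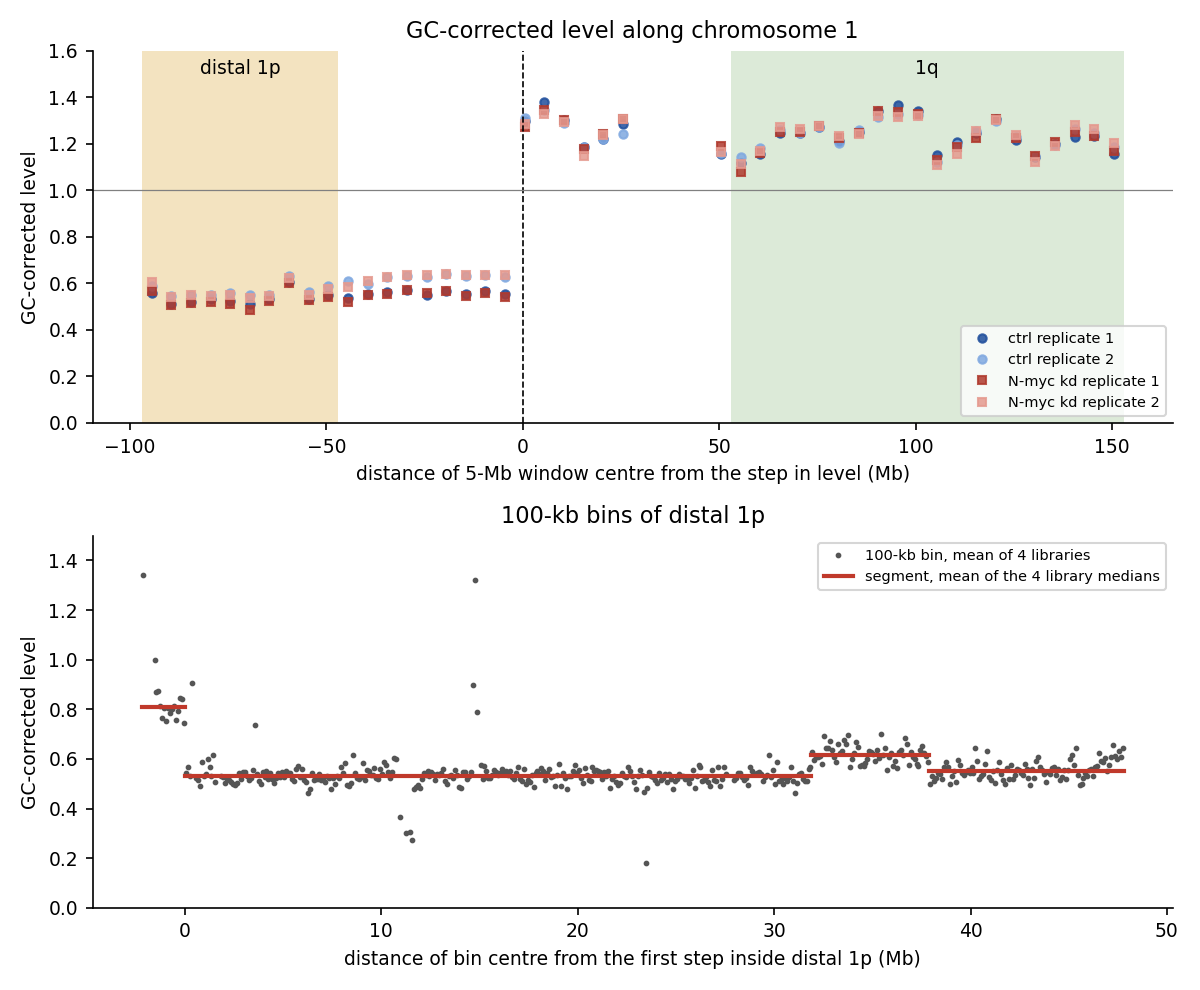
Top, GC-corrected level (1 is the typical autosomal bin) in 5-Mb windows of chromosome 1 against their distance in Mb from the step in level, with 1 point per library and with distal 1p and 1q shaded. Every window of distal 1p lies below 0.65 and every window of 1q above 1. Bottom, mean level of the 4 libraries in each 100-kb bin of distal 1p, with a line per segment, against the distance from the first step inside the arm.

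The low level did not end at the limit of the chosen stretch. A single step fitted to the corrected levels of chromosome 1 from base 1 to 120 Mb fell at base 97000001 in each of the 4 libraries. The median before it was 0.544 and 0.603 in ctrl and 0.538 and 0.602 in N-myc kd, and after it 1.28 and 1.29 in ctrl and 1.29 and 1.28 in N-myc kd. The chosen 50 Mb are thus the telomeric part of a longer low stretch, and the step lies in the same bin in all libraries, which come from 1 cell line.

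Inside distal 1p the level was not flat. A fit of 3 steps, chosen after the data had been examined, placed the first at 2200001 in all 4 libraries, the second between 33900001 and 34100001 and the third at 40000001 or 40100001. The first 2.2 Mb, at the telomere, held 55 protein-coding TSSs and had a median GC content of 56.3%. Without correction their level was 1.28 and 1.22 in ctrl and 1.16 and 1.14 in N-myc kd, above the typical autosomal bin. Their corrected level was 0.809 and 0.807 in ctrl and 0.801 and 0.822 in N-myc kd. The next 31.9 Mb, which hold 424 TSSs and most of the proposed suppressors, had 0.517 and 0.549 in ctrl and 0.510 and 0.542 in N-myc kd. The 6 Mb from 34100001 to 40100000, with 68 TSSs, stood between these, at 0.607 and 0.629 in ctrl and 0.604 and 0.624 in N-myc kd. The last 9.9 Mb, with 141 TSSs, had 0.535 and 0.577 in ctrl and 0.532 and 0.563 in N-myc kd. The telomeric segment was 1.53 ± 0.047 (SD, n = 4) times as high as the long second segment, and the third was 1.16 ± 0.018 times as high. Both ratios were above 1 in each library, and since the steps were fitted to these levels the ratios are descriptions with no test.

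Few single bins left this pattern. Of the 484 bins, 445 had a corrected level, as the mean over libraries, between 0.45 and 0.65, 5 lay below, 30 lay between 0.65 and 0.9, and 4 were at or above 0.9. The 5th percentile of 1q was 1.06, and 2 bins of distal 1p reached it. The lowest bin, from 25600001 to 25700000, holds RHD and RHCE, the genes of the Rh blood group antigens, with RSRP1 and TMEM50A. It had 1065 and 2207 reads in ctrl and 1138 and 2146 in N-myc kd, and a corrected level of 0.156 and 0.197 in ctrl and 0.170 and 0.197 in N-myc kd. The other 4 of the 5 lowest bins lay from 13100001 to 13800000, in the cluster of PRAMEF genes and HNRNPCL2, with mean levels of 0.275 to 0.365. RHD and RHCE are near-identical copies and PRAMEF is a family of close copies, whose reads a filter on mapping quality can lose, so these levels are uncertain.

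The highest bins were the first of the chromosome, with the olfactory receptor gene OR4F5, at 1.34, and the bin from 16900001 to 17000000, with NBPF1, at 1.32. The next were the bin of OR4F16 from 600001 to 700000 (0.997), the bin of PRXL2B, MMEL1 and TTC34 from 2500001 to 2600000 (0.905) and the bin from 16800001 to 16900000, also with NBPF1 (0.899). OR4F genes and the NBPF family also have close copies elsewhere in the genome, and their reads could have been placed at the wrong copy. In the first bin the level was 1.38 and 1.29 in ctrl and 1.38 and 1.31 in N-myc kd, so the 4 libraries were alike.

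Fewer reads reached distal 1p both as fewer called nucleosomes and as fewer reads in each. The arm had 3.54 and 4.24 nucleosomes per known kb in ctrl replicates 1 and 2 and 3.51 and 4.23 in N-myc kd replicates 1 and 2, whereas 1q had 4.11, 4.43, 4.15 and 4.44. The difference was -0.402 ± 0.232 (SD, n = 4) per kb, and it was larger in the shallower replicate 1 libraries. Places under the authors' minimum of 6 reads are not in these maps, and their part in the difference was not tested. A called nucleosome of distal 1p held a mean of 10.8 and 15.4 reads in ctrl and 10.4 and 14.7 in N-myc kd, against 15.8, 23.9, 15.6 and 23.5 in 1q. On the log2 scale this was -0.61 ± 0.052 (SD, n = 4). With a minimum of 10 reads the difference in number was -1.11 per kb, and in bins of 40 to 45% GC it was -0.641 per kb. Each of these differences was negative in 4 of 4 libraries (exact sign-flip permutation test, p = 0.13, the smallest possible).

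**Figure D2:**
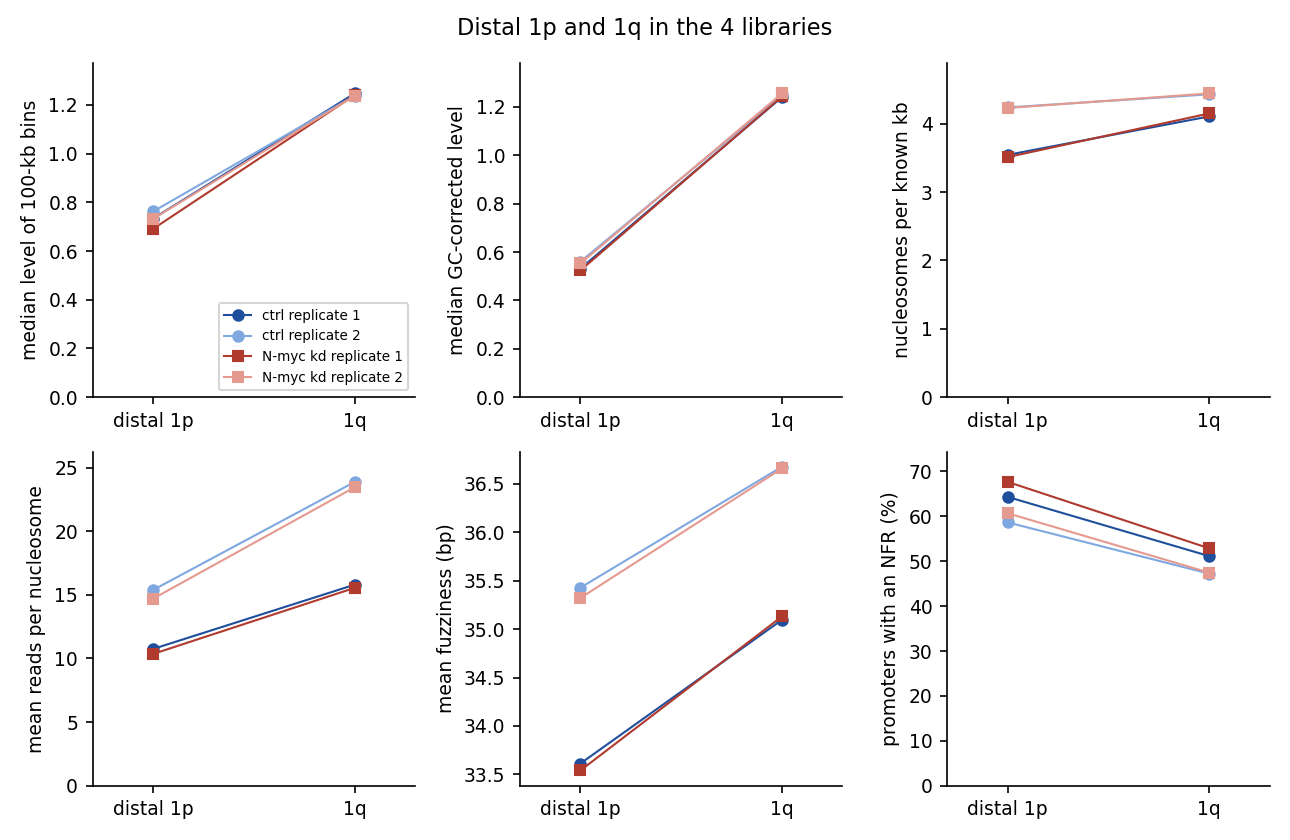
Values of distal 1p (left) and 1q (right) in each library, joined by a line, for the median level, the GC-corrected level, nucleosomes per known kb, mean reads per nucleosome, mean fuzziness in bp (axis not from 0) and the share of promoters with a nucleosome-free region. In each panel the 4 lines run the same way, and the first 5 measures are lower in distal 1p.

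The nucleosomes of distal 1p had slightly lower fuzziness. Mean fuzziness was 33.6 and 35.4 bp in ctrl and 33.5 and 35.3 bp in N-myc kd, against 35.1, 36.7, 35.1 and 36.7 bp in 1q. The difference was -1.41 ± 0.152 bp (SD, n = 4), lower in 4 of 4 libraries (exact sign-flip permutation test, p = 0.13). Fuzziness also differed with depth, being about as far apart between replicates 1 and 2 as between the arms. Among nucleosomes with 10 to 30 reads in both arms the difference was -1.09 ± 0.117 bp. Read numbers of the arms were not matched inside that range, and the part of read number in either difference was not tested.

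Spacing differed little. The mean distance between neighbouring dyads, over distances of 100 to 300 bp, was 208.9 and 207.9 bp in ctrl and 209.05 and 207.9 bp in N-myc kd. In 1q it was 208.1, 206.8, 208.1 and 206.9 bp. The difference of 0.957 ± 0.116 bp (SD, n = 4) was positive in 4 of 4 libraries (exact sign-flip permutation test, p = 0.13), but its size depended on the limits. It was 0.250 ± 0.158 bp over distances of 150 to 250 bp, 1.88 bp with a minimum of 10 reads and 1.84 bp in bins of 40 to 45% GC.

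A smaller share of nucleosomes had a near partner in another library in distal 1p than in 1q. Between the 2 ctrl libraries 20.5% of nucleosomes of distal 1p had a partner within 10 bp, and between the 2 knockdown libraries 19.8%, against 24.0% and 23.5% in 1q. Between control and knockdown libraries of the same replicate number the shares were 21.5% and 20.6% in distal 1p and 26.0% and 23.9% in 1q. Nucleosomes of a ctrl library were thus about as far from those of an N-myc kd library as from those of the other ctrl library. The median distance to the nearest nucleosome of the other library was 35 to 40.5 bp in distal 1p over the 6 pairs of libraries and 31 to 32.5 bp in 1q. Distal 1p also held fewer called nucleosomes per kb and fewer reads in each. The part of these in the difference between the arms was not tested. Of the nucleosomes of distal 1p in ctrl replicate 2, 21.3% had no partner overlapping by more than 30 bp in ctrl replicate 1, whereas in the opposite direction 7.55% had none, and the shallower library also held fewer calls.

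Promoters of distal 1p carried a nucleosome-free region (NFR) more often than those of 1q. The NFR is the stretch upstream of a TSS that lacks a nucleosome in many active genes, and it was scored here where the window between 200 bp before and 50 bp after the TSS had no nucleosome at least 80% inside it. Of 687 measured promoters of distal 1p, the share with an NFR was 64.3% and 58.7% in ctrl, and 67.7% and 60.7% in N-myc kd. Of 921 promoters of 1q the shares were 51.1%, 47.2%, 52.9% and 47.4%. The difference was 13.2 ± 1.38 percentage points (SD, n = 4), higher in 4 of 4 libraries (exact sign-flip permutation test, p = 0.13), and it was 19.6 points when a nucleosome needed 10 reads. A window also counts as free when its nucleosome has fewer than 6 reads, and the level of distal 1p was lower. The part of that in the difference was not tested.

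Reads around the TSS relative to each arm's own flanks also gave a lower window in distal 1p, and these too come only from called nucleosomes of at least 6 reads. Reads in the NFR window were 0.689 and 0.630 of those in the flanks, 500 to 1000 bp away on both sides, in ctrl of distal 1p, and 0.599 and 0.619 in N-myc kd. In 1q they were 0.760, 0.724, 0.731 and 0.725. The first nucleosome downstream of the TSS peaked at 125 bp in all 4 libraries of distal 1p, at 2.35 and 1.93 times the flanks in ctrl and 2.17 and 2.04 times in N-myc kd. In 1q this peak was at 115 to 125 bp and 1.98, 1.84, 1.88 and 1.86 times the flanks in the same order of libraries, so that the peak was higher in distal 1p in 4 of 4 libraries.

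**Figure D3:**
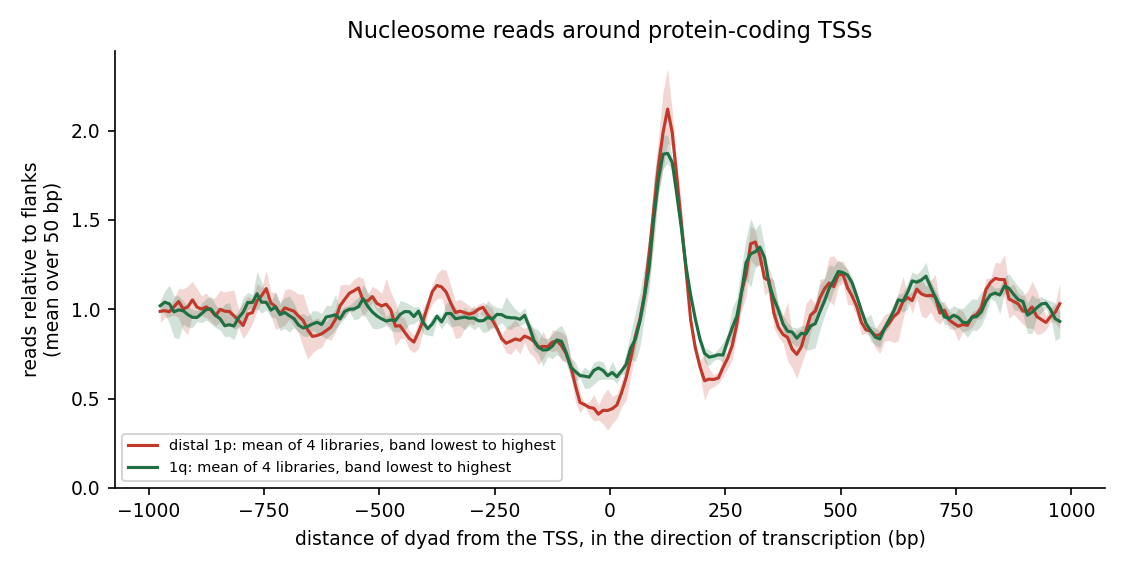
Reads relative to the flanks (mean over 50 bp) against the distance from the TSS in bp, for measured protein-coding promoters of distal 1p and 1q; lines are means of 4 libraries and bands run from the lowest to the highest library. The dip over the TSS is deeper in distal 1p, and the first downstream nucleosome peaks near 125 bp in both.

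Single promoters of the arm had low read counts. Reads were summed from 2 kb upstream to 1 kb downstream of each TSS and divided by the median protein-coding promoter of the library, which held 163, 263, 159 and 260 reads in ctrl replicates 1 and 2 and N-myc kd replicates 1 and 2. The median promoter of distal 1p stood at 0.626 and 0.673 in ctrl and 0.616 and 0.646 in N-myc kd, and that of 1q between 1.20 and 1.23. Of 688 promoters of distal 1p, 635 (92.3%) were below the median promoter in all 4 libraries, against 7.38% of 1q and 39.2% of all promoters. The highest promoter of the arm, that of AL627309.1, stood at 2.31 and the lowest, that of RHD, at 0.0677, and both lie among near copies.

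All 28 genes of a list of proposed suppressors and neuroblastoma genes of 1p36 were below 1 in all 4 libraries, as were all 22 of a list of growth, chromatin and repair genes, most of them nearer to the centromere. For the arm as a whole the share was 92.3%. The mean level ran from 0.393 to 0.722 in the first list and from 0.379 to 0.917 in the second. Both lists were drawn up with the low level of the arm known, so these counts describe the genes and support nothing.

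**Figure D4:**
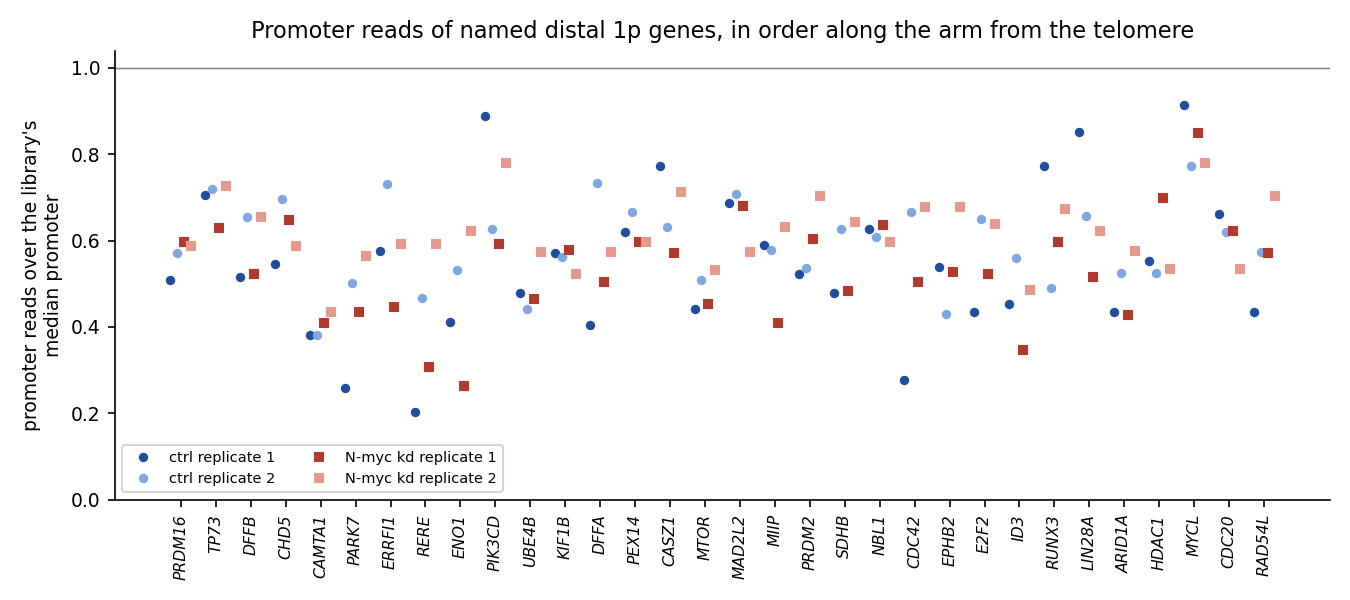
Promoter reads of the 28 genes of the first list and of HDAC1, MYCL, CDC20 and RAD54L, relative to the library's median promoter (grey line at 1), in order from the telomere, with 1 point per library. All points lie below 1, and control and knockdown points overlap for most genes.

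The chromatin remodeller CHD5 (6161847 to 6240381, minus strand) held 89 and 183 promoter reads in ctrl replicates 1 and 2 and 103 and 153 in N-myc kd replicates 1 and 2. The level was 0.546 and 0.696 in ctrl and 0.648 and 0.588 in N-myc kd, so the groups overlapped. Its NFR was open in both ctrl libraries and in N-myc kd replicate 1. CAMTA1 had the second lowest level of the first list, with 62 and 100 reads in ctrl and 65 and 113 in N-myc kd, and its NFR was open in all 4 libraries. KIF1B held 93 and 148 reads in ctrl and 92 and 136 in N-myc kd, also with an open NFR in all 4.

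CASZ1 held 126 and 166 reads in ctrl and 91 and 185 in N-myc kd, with an NFR in 3 of 4 libraries. TP73, a relative of the p53 tumour suppressor, held 115 and 189 reads in ctrl and 100 and 189 in N-myc kd. Both genes had control values inside the range of the knockdown values or equal to them, so that no separation by group was seen. ARID1A, a subunit of the SWI/SNF remodelling complex, held 71 and 138 reads in ctrl and 68 and 150 in N-myc kd. RUNX3, a transcription factor of the Runt family, held 126 and 129 reads in ctrl and 95 and 175 in N-myc kd.

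The lowest of the first list was RERE, which encodes a nuclear receptor coregulator, with 33 and 123 reads in ctrl and 49 and 154 in N-myc kd, a level of 0.202 to 0.592. PARK7, a protein that protects from oxidative stress, had a level of 0.258 and 0.502 in ctrl and 0.434 and 0.565 in N-myc kd. ENO1, the glycolytic enzyme enolase, held 67 and 140 reads in ctrl and 42 and 162 in N-myc kd. MTOR, the growth-regulating kinase, held 72 and 134 reads in ctrl and 72 and 138 in N-myc kd. In each of these the shallower replicate 1 libraries gave the lower level, so the ranges mostly follow the replicate number and not the group. At the same replicate number RERE, PARK7 and MTOR had a higher level in both knockdown libraries, with fitted log2 changes of 0.43, 0.39 and 0.06. ENO1 was lower in replicate 1 and higher in replicate 2.

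The apoptosis nuclease DFFB held 84 and 172 reads in ctrl and 83 and 170 in N-myc kd, and its inhibitor DFFA 66 and 193 in ctrl and 80 and 149 in N-myc kd. The ubiquitin ligase UBE4B had a level of 0.479 and 0.441 in ctrl and 0.465 and 0.573 in N-myc kd. The peroxisome import factor PEX14 held 101 and 175 reads in ctrl and 95 and 155 in N-myc kd. SDHB, a subunit of succinate dehydrogenase, held 78 and 165 reads in ctrl and 77 and 167 in N-myc kd. ERRFI1, an inhibitor of EGF receptor signalling, held 94 and 192 reads in ctrl and 71 and 154 in N-myc kd, lower in both knockdown libraries at the same replicate number. The other 11 members of the first list (PRDM16, MAD2L2, MIIP, PRDM2, NBL1, CDC42, EPHB2, E2F2, ID3, PIK3CD and LIN28A) had mean levels from 0.461 to 0.722.

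In the second list MYCL, a relative of MYCN (40361100 to 40367928, minus strand), had 149 and 203 reads in ctrl and 135 and 203 in N-myc kd, one of the higher levels at 0.772 to 0.914, and an NFR in N-myc kd replicate 2 alone. HDAC1, a histone deacetylase, held 90 and 138 reads in ctrl and 111 and 139 in N-myc kd. CDC20, an activator of the anaphase promoting complex, held 108 and 163 reads in ctrl and 99 and 139 in N-myc kd. RAD54L, a factor of repair by homologous recombination, held 71 and 151 reads in ctrl and 91 and 183 in N-myc kd. The last 3 had an NFR in all 4 libraries.

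Whether MYCN knockdown changed distal 1p was asked next. The level of the arm was slightly lower in N-myc kd, by 0.07 on the log2 scale. The median level was 0.734 and 0.763 in ctrl and 0.691 and 0.732 in N-myc kd, and the higher knockdown value lay just under the lower control value. The log2 level was -0.42 ± 0.039 (SD, n = 2) in ctrl and -0.49 ± 0.059 (SD, n = 2) in N-myc kd (exact permutation test, two-sided, p = 0.33, the smallest p that 2 against 2 libraries allow). The level of distal 1p relative to 1q differed by -0.07 on the log2 scale (exact permutation test, p = 0.667). With GC correction the difference in level of distal 1p was -0.02, and the difference between the groups was then smaller than the SD of either group without correction.

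The change differed with base composition from bin to bin. In replicates with number 1, 87.0% of the 484 bins had a lower level in N-myc kd than in the control, and in replicates with number 2, 88.8%. The log2 change ran against GC content, with r of -0.523 and -0.506 over the bins. In 1q, which is poorer in GC, 59.3% and 57.2% of bins were lower, and r was -0.659 and -0.665. After GC correction 62.0% and 63.0% of bins of distal 1p were lower, with median log2 changes of -0.02 and -0.01.

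**Figure D5:**
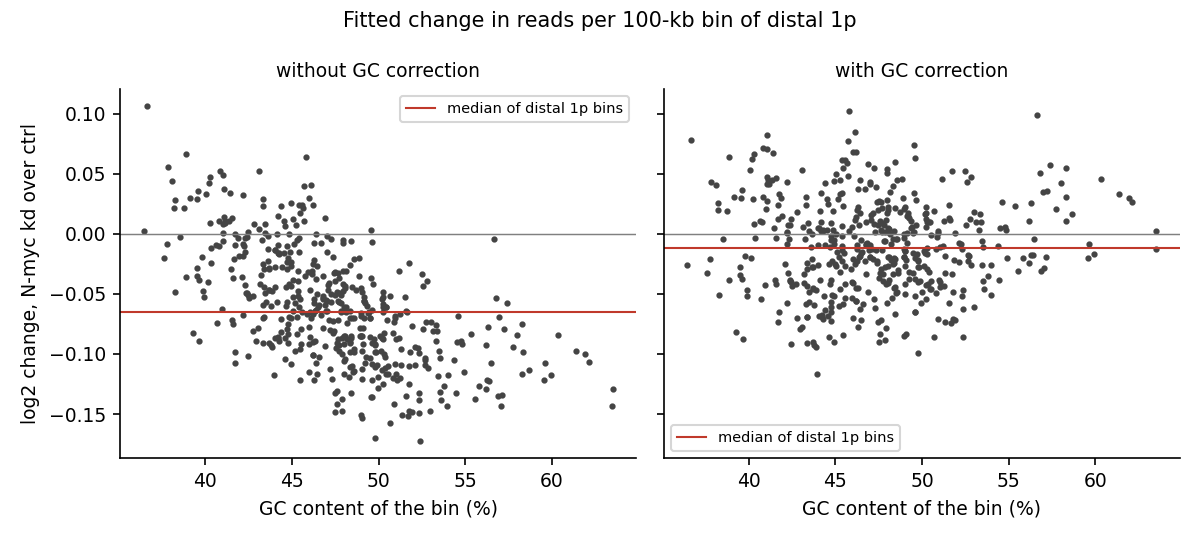
Log2 change in reads per 100-kb bin of distal 1p, MYCN knockdown over control, from the edgeR fit across the genome, against the GC content of the bin; left without and right with GC correction, red line the median of the bins. Without correction the GC-rich bins lie lower, and with it the points spread around the median at all GC contents.

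No bin of distal 1p passed the main test, which did not use the replicate number. Counts per 100-kb bin were fitted with edgeR's quasi-likelihood test over the autosomes and X, and 0 of 499 tested bins of distal 1p had a Benjamini-Hochberg adjusted p under 0.05, as had 0 of 28526 bins in all (0%). The lowest adjusted p of the arm was 0.838. At an unadjusted p under 0.05, 113 bins of distal 1p (22.6%) were lower in N-myc kd and 0 higher, where 3.99% of all tested bins were lower. With GC correction 3 bins of the arm (0.601%) had an unadjusted p under 0.05, of which 2 were lower, against 0.925% of all tested bins. The median log2 change of the arm was -0.06 without and -0.01 with correction, and that of all bins 0.00053 and 0.0055. DESeq2 also called 0 bins, with 115 of the arm (23%) at an unadjusted p under 0.05, against 6.4% of all tested bins. With the replicate number added to the edgeR fit as a block, 196 of the 499 bins were called, 195 of them lower. In that fit 19.3% of all tested bins were called. With the block and GC correction 2 of the 499 were called, where 0.908% of all tested bins were.

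The promoters of distal 1p gave no call either. In the edgeR fit 0 of 688 promoters of the arm, and 0 of 20088 in all (0%), had an adjusted p under 0.05. At an unadjusted p under 0.05, 22 of the arm (3.20%) were lower in N-myc kd, against 1.56% of all promoters, and 6 were higher. In both directions together these were 4.07% of the arm and 3.15% of all promoters. DESeq2 called 0, with 10 of the arm (1.45%) at an unadjusted p under 0.05, against 1.04% of all promoters. In the first list 0 of 28 promoters had an unadjusted p under 0.05 and 13 of 28 had a lower fitted value in N-myc kd, with a median log2 change of 0.01. In the second list 0 of 22 had one and 9 of 22 were lower, with a median of 0.02. Over all promoters of distal 1p the median was -0.03 and over all promoters -0.00012.

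KLF18, GJA4, TNFRSF18 and SCNN1D were among the 5 promoters of the arm with the lowest unadjusted p, each with an adjusted p of 0.999 in the edgeR fit. KLF18, a factor of the Krüppel-like family, held 154 and 195 reads in ctrl and 87 and 156 in N-myc kd, a log2 change of -0.52 ± 0.19 (SE). GJA4, a gap junction protein, held 139 and 254 reads in ctrl and 88 and 191 in N-myc kd, a change of -0.47 ± 0.17 (SE). SCNN1D, a sodium channel subunit, held 205 and 366 reads in ctrl and 157 and 275 in N-myc kd, a change of -0.36 ± 0.14 (SE). At the same replicate number each was lower in N-myc kd. TNFRSF18, a receptor of the TNF family, held 201 and 247 reads in ctrl and 233 and 345 in N-myc kd, a change of 0.39 ± 0.15 (SE).

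NFRs of distal 1p were lost in N-myc kd in a share near that of all promoters, and formed in a somewhat higher share, and neither difference was tested. Of 348 promoters of distal 1p with an NFR in both ctrl libraries, 20 (5.75%) had a filled window in both knockdown libraries, against 5.26% of all promoters and 6.47% in 1q. Of 363 with an NFR in both knockdown libraries, 29 (7.99%) had a filled window in both ctrl libraries, against 5.65% of all promoters and 6.18% in 1q. Within distal 1p 283 of 687 promoters (41.2%) had an NFR in all 4 libraries, against 32.3% of all promoters and 27.6% in 1q. A filled window in all 4 was seen in 102 (14.8%), against 19.96% of all promoters and 26.3% in 1q. These differences were not tested either. In the 2 lists together, PIK3CD, a phosphoinositide kinase, and TAL1, a blood cell transcription factor, had an NFR in both ctrl libraries and in neither knockdown library. RUNX3 and FOXE3, a lens forkhead factor, had one in both knockdown libraries and in neither ctrl library. A window changes state through a single nucleosome of 6 or more reads, and none of these 4 promoters had an unadjusted p under 0.05 in the edgeR fit.

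The remaining measures of distal 1p differed between the groups by less than between replicates 1 and 2. Knockdown minus control was -0.0204 nucleosomes per kb, -0.06 on the log2 scale for reads per nucleosome, -0.0890 bp for fuzziness and 0.0846 bp for spacing. The SD within a group was at least 0.491 per kb, 0.357 on the log2 scale, 1.26 bp and 0.758 bp for these measures. Each had p = 0.667 by an exact two-sided permutation test (n = 2 per group). Each changed sign without ctrl replicate 2 and without N-myc kd replicate 1, where the groups were unequal in depth. At the same replicate number, 1 then 2, each kept its sign. The differences were -0.0326 and -0.0082 per kb, -0.05 and -0.07 (log2), -0.0716 and -0.107 bp in fuzziness, and 0.109 and 0.0600 bp in spacing.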

How the data were processed

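MNase-seq nucleosome maps of 4 BE(2)C libraries were used, grouped by the sample titles. Members and gene lists were chosen with earlier results of these data known. Per the labels and methods, the authors trimmed reads with Trim Galore 0.4.4, mapped them to hg19 with Bowtie2 2.2.4, removed duplicates and called nucleosomes per library. The deposited count of a nucleosome is the whole number of fragment midpoints assigned to it, at least 6, and the deposited fuzziness is the SD in bp of these midpoints. Sums of such counts leave out reads outside calls, and their totals are not the library depth. Coordinates and TSSs are GRCh37 with GENCODE v44lift37.

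Levels were computed with Python 3.11.15 and numpy 2.4.6. Counts per 100-kb bin and per promoter were tested with edgeR 4.0.16 (R 4.3.3, TMM, quasi-likelihood, mean of at least 10 reads) over all autosomes and X and adjusted over all features. DESeq2 1.42.0, a replicate block, no filter, GC correction and leaving out each library were alternatives. Named genes were the first list, 4 genes of the second, and, as no promoter was called, the 5 with the lowest unadjusted p. One of these 5 is not reported here. Named bins were the 5 lowest and 5 highest by corrected level. No nucleosome passed the first rule for printing sequences (same base and at least 20 reads in all 4 libraries), so a 10-bp limit was used.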

Additional observations from a re-analysis of the deposited data

How the results depend on the processing

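The differences between distal 1p and 1q kept their direction under every alternative run. Of 102 alternative values, 87 kept their direction, their call and, between the groups, their size within the replicate spread, and the others follow. For the knockdown, GC correction gave a log2 difference of -0.0197 in the level of distal 1p, and a minimum of 10 reads per nucleosome gave -0.14, and -0.13 relative to 1q. The replicate block called 196 of 499 bins of distal 1p, 195 of them lower, where 19.3% of all tested bins were called. GC correction with the replicate block called 2 of the 499, where 0.908% of all tested bins were called. Of these 2, the bin at 800001 (SAMD11, NOC2L, KLHL17) was higher and that at 36300001 (AGO4, AGO1, AGO3) lower. No promoter of the arm was called with the block. Libraries with the same number deviated together from the group means (r = 0.851 over bins), but there are 2 pairs and the labels name no shared batch, so the numbers were not taken as pairs. The main fit called 0 bins of distal 1p. A fit without 1 library leaves a lone library in a group, assumed to vary like the others, so only effect sizes are given. Without N-myc kd replicate 1 the result differed from the main fit at the bin at 2600001, with a log2 change of -0.29 in edgeR. That bin of 100 kb holds 50000 known bases and was not among the bins used for levels. Without 1 library the group differences in distal 1p ran from -0.379 to 0.339 nucleosomes per kb, from -0.32 to 0.20 (log2) in reads per nucleosome, from -0.996 to 0.818 bp in fuzziness and from -0.476 to 0.645 bp in spacing, and spacing was also reversed, at -0.0711 bp, over distances of 150 to 250 bp. Without 1 library the groups were also unequal in depth, and the cause was not tested. Counts per promoter are near 160 to 260 reads, and in distal 1p fewer, which limits what a promoter test could show.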
